A study of Mus musculus with 8 samples.

Results

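The MS4A genes encode membrane proteins that cross the membrane several times, and the best known of the family is CD20 on B cells. Members Ms4a3, Ms4a4a, Ms4a4c, Ms4a6b, Ms4a6c, Ms4a6d and Ms4a7 are those known from myeloid cells, and they were found by symbol among the 24062 genes of the count table. Of the 7 listed genes 6 were found, and edgeR's low-count filter kept all 6, as it kept 13197 genes in all. The expression of Ms4a4a was not analysed here.

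The counts come from immature myeloid cells (IMCs), made by growing bone marrow cells of C57BL/6 mice aged 2 months for 3 days with 40 ng/mL of M-CSF, the growth factor of monocytes and macrophages. There were 4 groups of 2 libraries. PARP1 WT cells carried PARP1 flox/flox and PARP2 WT cells carried PARP2 flox/flox, without Cre in either case. PARP1CKO and PARP2CKO cells carried the same floxed alleles with lysozyme-Cre (LyzM-Cre), which is expressed in the myeloid lineage and can leave the gene intact in part of the cells. The series calls the replicates biological duplicates, and the labels do not say whether they are separate animals, so the p-values measure the spread between these libraries.

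MS4A proteins sit beside signalling receptors. CD20 (Ms4a1) acts with the B cell receptor, Ms4a2 is the beta chain of the high-affinity IgE receptor, and MS4A4A acts with Dectin-1, a receptor for fungal glucans that is encoded by Clec7a. In people, variants near MS4A4A and MS4A6A are associated with the level of soluble TREM2, a lipid-sensing receptor of myeloid cells, in cerebrospinal fluid. The mouse Ms4a6 genes are local duplicates of each other, Ms4a3 is a gene of granulocyte and monocyte progenitors, Ms4a4c is induced by interferon, and Ms4a7 is a gene of macrophages.

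Levels are in CPM, which are counts relative to the total of the library, with library totals scaled by TMM, edgeR's trimmed mean of M-values. The libraries held between 37852450 and 61845125 counts. In PARP1 WT Parp1 was at 202 and 211 CPM, against 63.2 and 59.1 CPM in PARP1CKO (log2 fold change -1.75, adjusted p = 0.0134). In PARP2 WT Parp2 was at 48.2 and 48.3 CPM, against 25.7 and 25.6 CPM in PARP2CKO (log2 fold change -0.91, adjusted p = 0.000139). Parp1 was at 251 and 155 CPM in PARP2 WT, where replicate 2 was the lower, and at 263 and 264 CPM in PARP2CKO. Parp2 was higher in PARP2 WT than in PARP1 WT (log2 fold change 0.27, standard error 0.0445). Itgam, which encodes CD11b, lay between 881 and 1035 CPM. The summed level of the 9 macrophage markers tested lay between 4023 and 4873 CPM, and that of the 9 neutrophil markers between 2585 and 3301 CPM. In bulk RNA fewer cells of a type and less RNA per cell cannot be told apart.

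The members lie on chromosome 19 of GRCm38 (mm10), within 319.813 kb, and each is a protein-coding gene in GENCODE M21. Ms4a7 lies from 11321039 to 11336146 on the minus strand. On the plus strand follow Ms4a4c from 11404770 to 11427246, Ms4a6c from 11469366 to 11482192 and Ms4a6b from 11516512 to 11531256. Ms4a6d from 11586604 to 11604849 and Ms4a3 from 11629496 to 11640851 lie on the minus strand. Since the Ms4a6 genes are close copies, every run of 75 bases, the length of a read, was looked up in the transcripts of all other genes. No run of Ms4a3 or Ms4a7 was found in another gene. Shared runs made up 3.78% in Ms4a4c (with Ms4a4b), 3.23% in Ms4a6c (with Ms4a6b and Prdm11), 1.11% in Ms4a6b (with Ms4a6c and Ms4a6d) and 0.479% in Ms4a6d (with Ms4a6b). Over these stretches the counts of the copies are uncertain, and runs that match with a mismatch were not looked up. In Ms4a6c 53.4% and in Ms4a6b 0.844% of the runs also occur on the other strand, in BE692007. Whether the counting used the strand is not given in the sources used here.

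Per kb of exon, Ms4a6d had the highest level of the members, with a median of 78.6 CPM per kb over the 8 libraries (range 73.3 to 110). It was followed by Ms4a6c at 46.0 (38.5 to 55.4) and Ms4a7 at 41.4 (35.9 to 47.5). Ms4a3 at 10.7 (7.48 to 13.5), Ms4a6b at 8.78 (5.82 to 15.8) and Ms4a4c at 2.58 (2.11 to 5.39) were lower. Ms4a6d stood above Ms4a6c, and Ms4a7 above Ms4a3, in 8 of 8 libraries. Ms4a6b stood above Ms4a4c in 8 of 8 as well. The ranges of Ms4a6c and Ms4a7 overlapped, and so did those of Ms4a3 and Ms4a6b, each pair being in this order in 5 of 8 libraries.

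**Figure D1:**
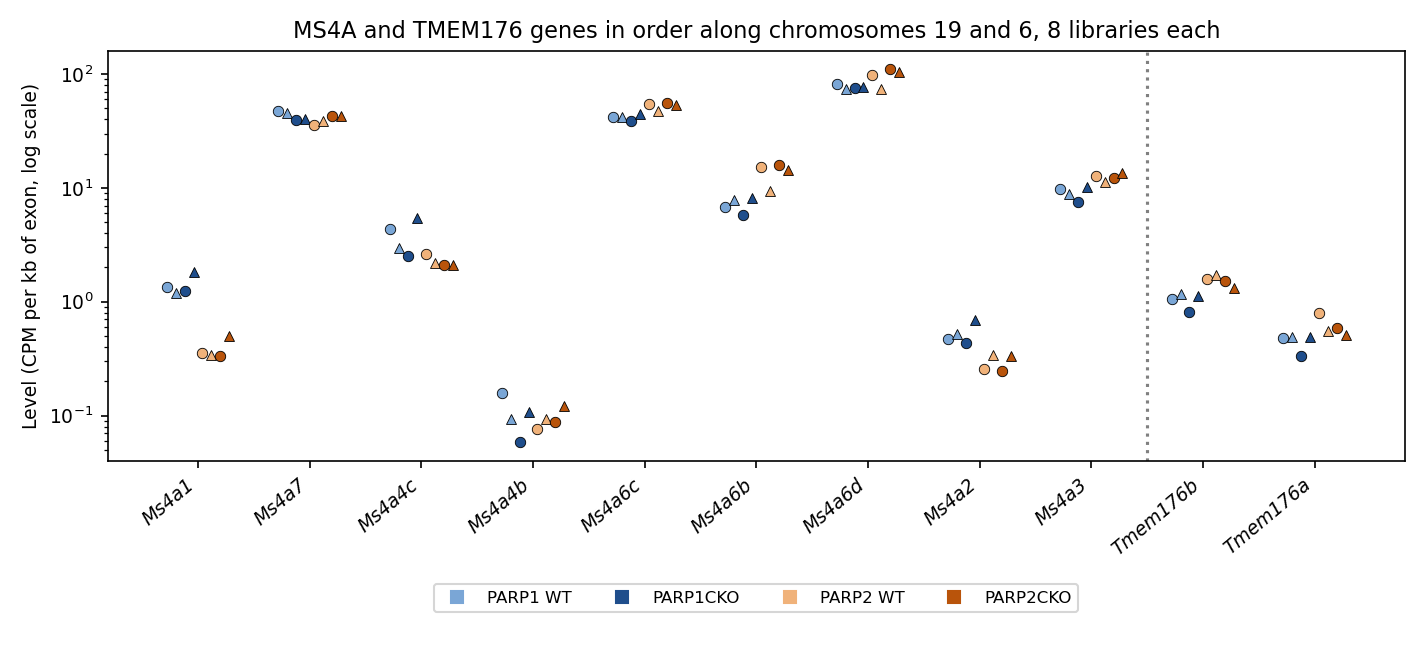
Level of each MS4A and TMEM176 gene that passed the filter, in CPM per kb of exon on a log axis, with genes in their order along the chromosome (circle: replicate 1, triangle: replicate 2). Ms4a6d, Ms4a6c and Ms4a7 lie above 35 in all 8 libraries, while Ms4a1, Ms4a2 and Ms4a4b, the MS4A genes of lymphocytes and mast cells, have medians of 0.852, 0.389 and 0.0932.

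Ms4a7 was the member that varied least over the libraries, and the only member whose 4 groups were all separate. It stood at 82.3 and 78.5 CPM in the PARP1 WT libraries, 67.9 and 69.6 CPM in the PARP1CKO libraries, 62.1 and 66.8 CPM in the PARP2 WT libraries, and 73.7 and 74.0 CPM in the PARP2CKO libraries. No library of any group fell into the range of another group, so that the order was PARP1 WT, PARP2CKO, PARP1CKO and PARP2 WT. Such a separation of all 4 groups was found in 3.55% of the genes tested. The highest library was 1.33 times the lowest, and at least 3147 counts stood behind each value.

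In PARP1CKO against PARP1 WT, the log2 fold change of Ms4a7 was -0.23 (standard error 0.0466), with rank 73 by p among the 13197 genes, and it did not pass the threshold after Benjamini-Hochberg adjustment over all genes in edgeR's quasi-likelihood test (adjusted p = 0.172). With edgeR's likelihood-ratio test the same difference had an adjusted p of 0.0169. In PARP2CKO against PARP2 WT its log2 fold change was 0.20 (standard error 0.0463, rank 49, adjusted p = 0.585). The difference between these effects was 0.42 on the log2 scale (standard error 0.0657). It had rank 14 by p, with an adjusted p of 0.122 in the quasi-likelihood test and of 0.00558 in DESeq2. The adjusted p fell between 0.000222 and 0.341 over the alternatives, except the crossed replicate block, for which only calls were counted.

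The Ms4a7 call was between the Cre-free lines. Its level was 1.25-fold lower in PARP2 WT than in PARP1 WT, which is -0.32 on the log2 scale (standard error 0.0465, adjusted p = 0.0100). Without PARP1 WT replicate 1 the log2 fold change was -0.29 with an adjusted p of 0.0853, and without PARP2 WT replicate 1 it was -0.27 with an adjusted p of 0.0686. The call was lost when either of these libraries was left out, while the direction stayed. Here and below, a fit without a library leaves 1 library in that group, which is assumed to vary like those of the other groups. The labels separate PARP1 WT from PARP2 WT by the floxed line alone, so that the floxed allele and anything else that differed between the lines cannot be told apart, and both CKO comparisons share these WT libraries with the comparison of the lines.

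**Figure D2:**
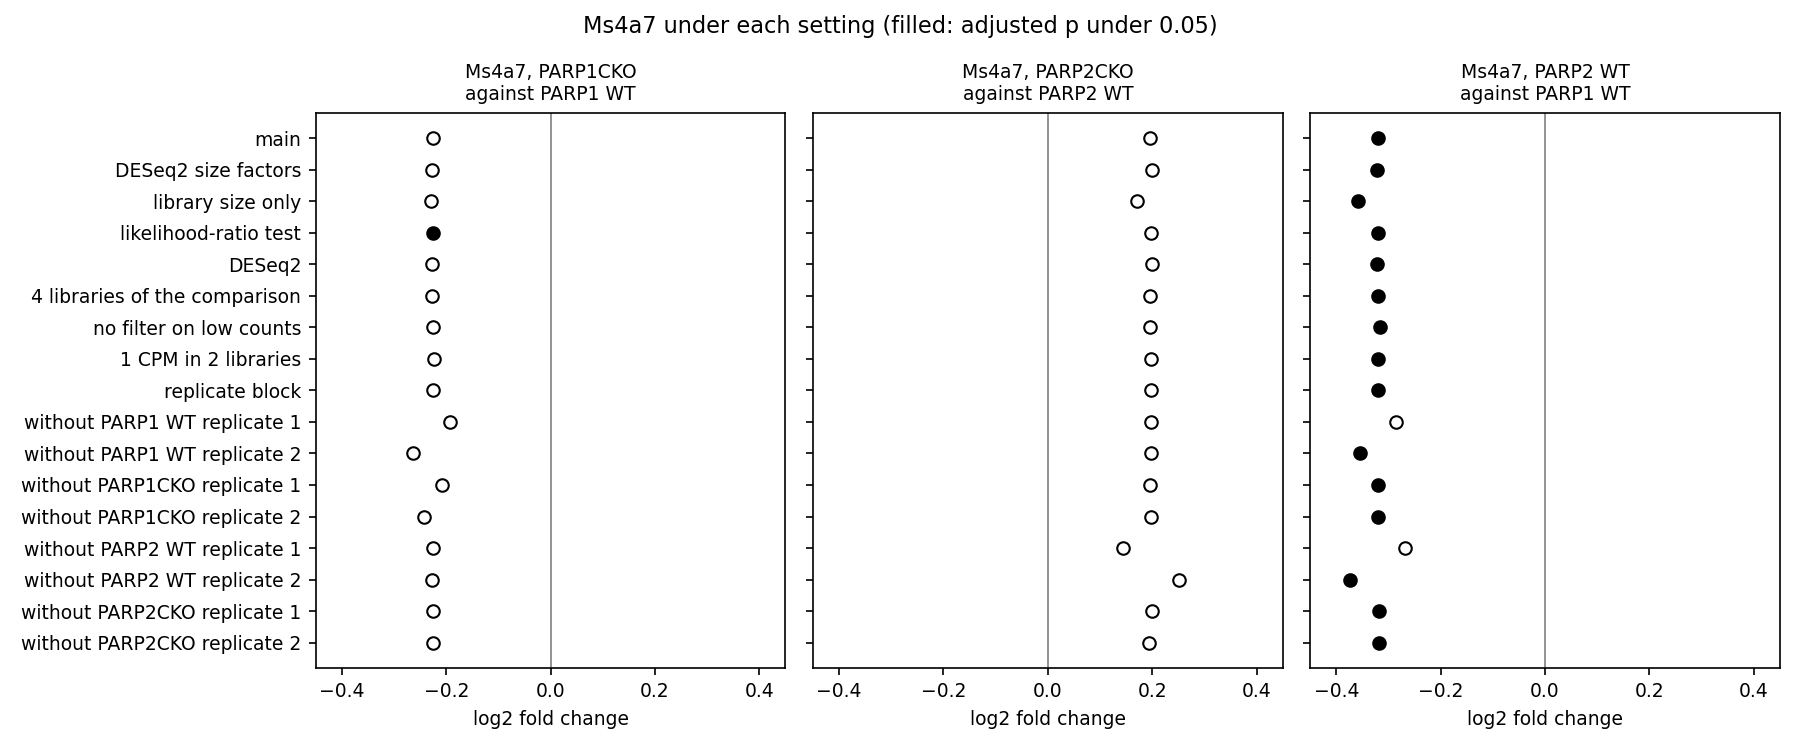
log2 fold change of Ms4a7 in 3 comparisons under the main analysis and each alternative (filled: adjusted p under 0.05). The values lie between -0.26 and -0.19 for PARP1CKO, between 0.14 and 0.25 for PARP2CKO, and between -0.37 and -0.27 for PARP2 WT against PARP1 WT.

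The promoter of Ms4a7 is shown because this gene was the member called. RefSeq's promoter entries, on GRCm38.p6, cover 6 of the 7 members, without Ms4a6d. They were searched on both strands, in the 250 bases before the start, for the PU.1 core GAGGAA, the interferon regulatory factor (IRF) element GAAANNGAA, the C/EBP element TTNNGNAAT, the AP-1 element TGANTCA and the TATA box TATAAA. Capitals mark a match to the IRF element on the other strand, which begins 71 bases before the start.
Ms4a7, chr19:11336147-11336396, minus strand: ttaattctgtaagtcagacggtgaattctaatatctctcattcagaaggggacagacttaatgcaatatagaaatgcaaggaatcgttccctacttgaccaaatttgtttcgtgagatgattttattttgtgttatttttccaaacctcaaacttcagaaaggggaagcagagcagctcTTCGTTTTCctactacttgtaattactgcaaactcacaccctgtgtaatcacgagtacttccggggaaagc
Of all 32851 promoter windows of this length, 7.13% hold this element. A second RefSeq start of Ms4a7, at 11334695, has the IRF element 148 bases and the AP-1 element 81 bases before it, and the AP-1 element is found in 6.75% of windows. A match is a description of letters and not a binding site.

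Ms4a6b and Ms4a6c were the members whose levels ran closest together, with a Pearson's r of log2 CPM of 0.99 over the 8 libraries. The next pairs were Ms4a3 with Ms4a6c (0.95) and Ms4a3 with Ms4a6b (0.91). Ms4a6b stood at 18.2 and 20.9 CPM in the PARP1 WT libraries, 15.6 and 22.1 CPM in the PARP1CKO libraries, 41.0 and 25.0 CPM in the PARP2 WT libraries, and 42.3 and 38.7 CPM in the PARP2CKO libraries. Ms4a6c stood at 76.9 and 77.5 CPM in the PARP1 WT libraries, 70.8 and 82.9 CPM in the PARP1CKO libraries, 100.7 and 86.4 CPM in the PARP2 WT libraries, and 101.9 and 99.4 CPM in the PARP2CKO libraries. For both genes the 4 PARP2-line libraries lay above the 4 PARP1-line libraries, PARP1CKO replicate 1 was the lowest, and PARP2 WT replicate 2 was the lowest of its line. The share of all genes with such a separation of the lines was not counted. Between the WT lines alone, 26.7% of the genes tested were higher without overlap.

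**Figure D3:**
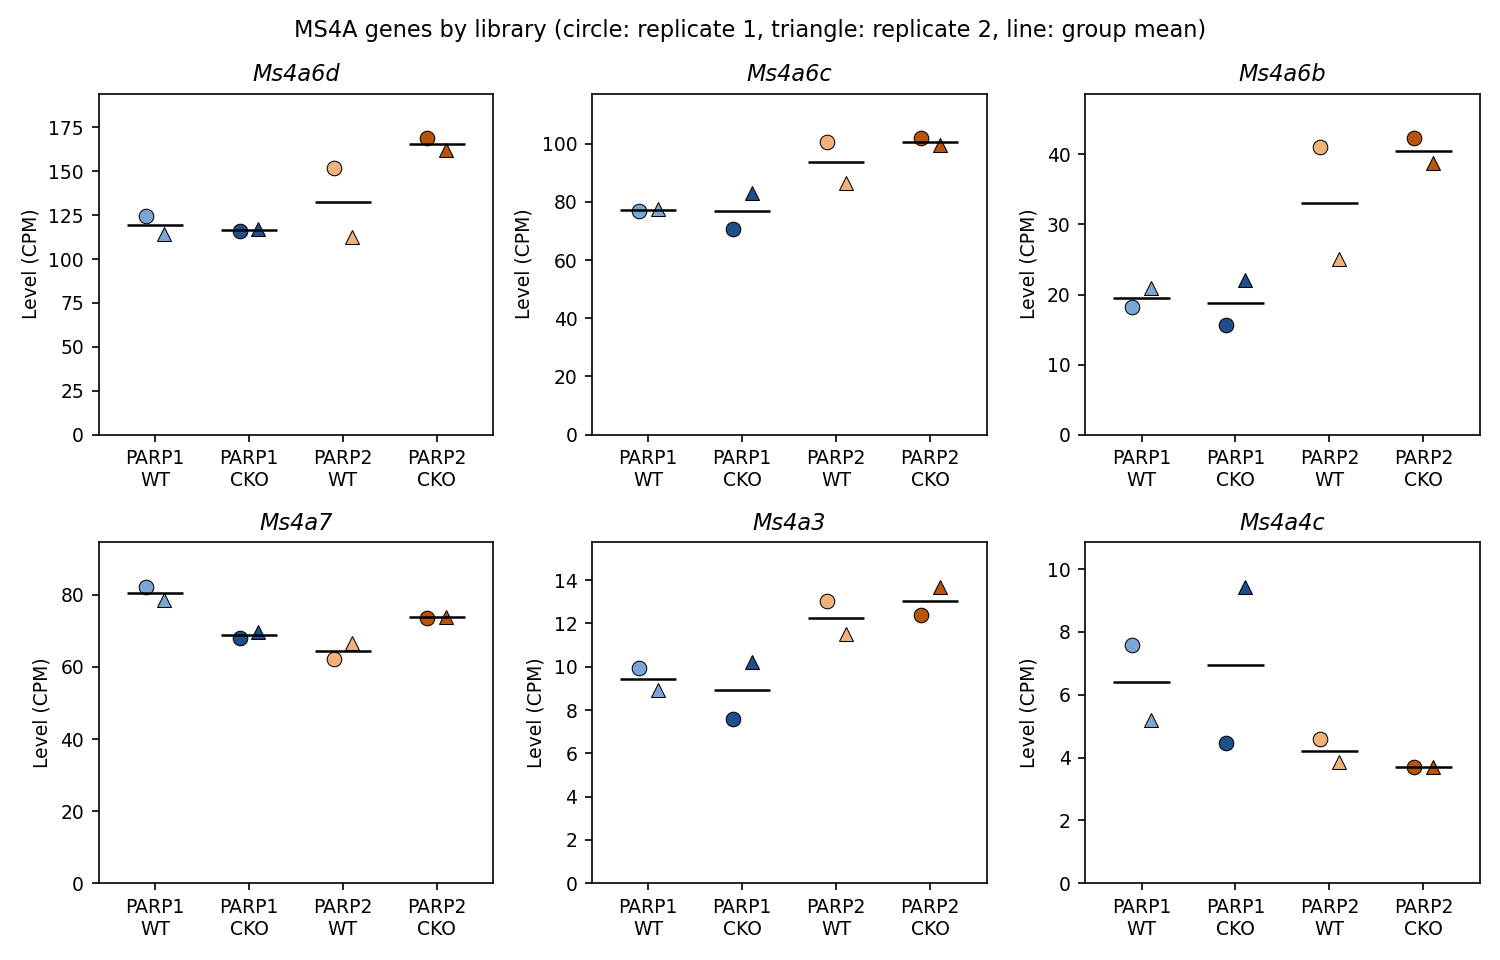
CPM of each member in every library, with the group mean as a line (circle: replicate 1, triangle: replicate 2) and axes that start at 0. Ms4a6b and Ms4a6c have the same order of low and high libraries within the PARP2 line, and Ms4a7 is the gene whose 4 groups do not overlap.

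Between the WT lines, the log2 fold change of Ms4a6b was 0.76 (standard error 0.222, adjusted p = 0.117) and that of Ms4a6c was 0.28 (standard error 0.0838, adjusted p = 0.123). Neither passed the threshold in the quasi-likelihood test. The adjusted p of Ms4a6b was 0.0158 and that of Ms4a6c was 0.0372 with the likelihood-ratio test. In DESeq2 the adjusted p was 0.188 for Ms4a6b and 0.0311 for Ms4a6c. Without PARP2 WT replicate 2, Ms4a6b reached 1.06 with an adjusted p of 0.0256, and without PARP2 WT replicate 1 it was 0.35 with an adjusted p of 0.442. For Ms4a6c the same fits gave 0.38 (adjusted p = 0.0826) and 0.16 (adjusted p = 0.466). Neither gene passed the threshold in a CKO comparison. Ms4a6b had log2 fold changes of -0.06 (standard error 0.230) in PARP1CKO and 0.29 (standard error 0.211) in PARP2CKO, and Ms4a6c of -0.01 (standard error 0.0845) and 0.11 (standard error 0.0827). The intervals of 2 standard errors ran from -0.18 to 0.16 for Ms4a6c in PARP1CKO and from -0.06 to 0.27 in PARP2CKO. In PARP2CKO, leaving out PARP2 WT replicate 1 or 2 gave 0.22 and 0.00097 for Ms4a6c and 0.70 and -0.015 for Ms4a6b.

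The 2 promoters are shown because they hold the same sequence. Ms4a6b and Ms4a6c share runs of 48 and 24 bases, 72 bases in all, and the run of 48 was found in the promoters of 2 of 27025 genes, these 2. No other pair of members shared a run of more than 12 bases. Capitals mark the shared runs, and each sequence stops where a GENCODE exon of its gene begins, so that 106 bases before the start of Ms4a6b and 2 of Ms4a6c are not shown. Most of the run of 48 bases in Ms4a6b, and the last base of that run in Ms4a6c, fall in the part not shown.
Ms4a6c, chr19:11469118-11469365, plus strand: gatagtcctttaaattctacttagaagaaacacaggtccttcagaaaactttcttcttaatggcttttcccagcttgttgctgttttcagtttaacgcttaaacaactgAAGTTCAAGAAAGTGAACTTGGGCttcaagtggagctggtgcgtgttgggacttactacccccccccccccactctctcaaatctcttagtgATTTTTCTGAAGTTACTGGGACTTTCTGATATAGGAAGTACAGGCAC
Ms4a6b, chr19:11518309-11518452, plus strand: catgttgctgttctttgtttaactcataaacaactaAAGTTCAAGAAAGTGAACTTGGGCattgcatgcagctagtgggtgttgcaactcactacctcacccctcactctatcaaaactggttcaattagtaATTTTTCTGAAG
The shared run of 24 bases holds the IRF element, 133 bases before the start of Ms4a6c and 206 bases before that of Ms4a6b. The window of Ms4a6b lies within the longer GENCODE gene, and the bases before the start of that gene were not searched.

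Ms4a6d, the most abundant member and one whose protein is known to bind the complement receptor VSIG4, stood at 124 and 114 CPM in the PARP1 WT libraries and at 116 and 117 CPM in the PARP1CKO libraries. It stood at 152 and 113 CPM in the PARP2 WT libraries and at 169 and 162 CPM in the PARP2CKO libraries. Both PARP2CKO libraries were above both PARP2 WT libraries, and PARP2 WT replicate 2 was the lowest of the 8. The log2 fold change in PARP2CKO was 0.32 (standard error 0.113, adjusted p = 0.888). Without PARP2 WT replicate 1 it was 0.55 with an adjusted p of 0.0205, and without PARP2 WT replicate 2 it was 0.12 with an adjusted p of 0.9997, so both the value and the call depend on which WT library is kept. In PARP1CKO it was -0.03 (standard error 0.114), and the difference between the effects was 0.35 (standard error 0.160, adjusted p = 0.654). That difference was 0.59 without PARP2 WT replicate 1 and 0.16 without PARP2 WT replicate 2. Vsig4 itself had at most 6 counts in any library and was not tested.

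Ms4a3, whose human protein binds the cyclin-dependent kinase phosphatase encoded by CDKN3, stood at 9.95 and 8.91 CPM in the PARP1 WT libraries and at 7.57 and 10.2 CPM in the PARP1CKO libraries. It stood at 13.02 and 11.5 CPM in the PARP2 WT libraries and at 12.4 and 13.7 CPM in the PARP2CKO libraries. All PARP2-line libraries stood above all PARP1-line libraries, a separation whose share over all genes was not counted. The log2 fold change between the WT lines was 0.38 (standard error 0.138, adjusted p = 0.183). Within the lines it was -0.08 (standard error 0.142) in PARP1CKO and 0.09 (standard error 0.133) in PARP2CKO. Beside it, Elane and Prtn3, serine proteases of the granules that form in progenitors, were higher in PARP2 WT than in PARP1 WT by 0.42 (adjusted p = 0.0269) and 0.54 (adjusted p = 0.0197) on the log2 scale, and Fcnb by 0.83 (adjusted p = 0.00703). Kit, the stem cell factor receptor of early progenitors, was lower (log2 fold change -0.70, adjusted p = 0.00429). These were the 4 of 9 progenitor markers that passed, with a list median of 0.34 beside 0.00131 for all genes. The summed level of the list lay between 343 and 415 CPM in the PARP1 line and between 447 and 496 CPM in the PARP2 line. The part of cell composition in the Ms4a3 values was not tested.

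Ms4a4c had the lowest level of the members found and, relative to its level, the widest spread between replicates in the PARP1 groups. It stood at 7.60 and 5.20 CPM in the PARP1 WT libraries, 4.46 and 9.44 CPM in the PARP1CKO libraries, 4.58 and 3.86 CPM in the PARP2 WT libraries, and 3.70 and 3.69 CPM in the PARP2CKO libraries. The PARP1CKO libraries were its lowest and highest of the PARP1 line. The log2 fold change was 0.12 in PARP1CKO (standard error 0.306), -0.19 in PARP2CKO (standard error 0.322) and -0.59 between the WT lines (standard error 0.314, adjusted p = 0.357). The sign in PARP1CKO turned to -0.51 without PARP1CKO replicate 2 and to -0.14 without PARP1 WT replicate 2. In PARP2CKO the log2 fold change was -0.064 without PARP2 WT replicate 1 and -0.31 without PARP2 WT replicate 2. Between the WT lines it was -0.30 without PARP1 WT replicate 1 and -0.85 without PARP1 WT replicate 2.

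The 12 interferon response genes were read beside Ms4a4c, which interferon induces. Their summed level was 282 and 205 CPM in the PARP1 WT libraries, 242 and 381 CPM in the PARP1CKO libraries, 175 and 185 CPM in the PARP2 WT libraries, and 146 and 168 CPM in the PARP2CKO libraries. PARP1CKO replicate 2 was highest for the list and for Ms4a4c, and PARP1 WT replicate 1 was next for both. Fitted values of all 12 were positive in PARP1CKO (median 0.58) and negative in PARP2CKO (median -0.30), and none of the 12 passed the threshold there. Oas1a, which senses double-stranded RNA, was the 1 gene of the list to pass between the WT lines (log2 fold change -0.59, adjusted p = 0.0431). The part of interferon signalling in the Ms4a4c values was not tested. The promoter of Ms4a4c is shown for contrast with those of Ms4a7, Ms4a6b and Ms4a6c, since it lacks the letters of the IRF element and holds the PU.1 core 61 bases and the C/EBP element 164 bases before the start, both in capitals.
Ms4a4c, chr19:11407411-11407660, plus strand: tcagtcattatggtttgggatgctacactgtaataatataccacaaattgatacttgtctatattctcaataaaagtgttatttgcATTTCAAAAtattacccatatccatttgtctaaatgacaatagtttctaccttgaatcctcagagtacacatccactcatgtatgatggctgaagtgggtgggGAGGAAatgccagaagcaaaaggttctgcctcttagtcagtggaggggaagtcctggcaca
The PU.1 core is found in 23.3% and the C/EBP element in 10.2% of all promoter windows, and the TATA box, which no promoter of the 6 members searched holds, in 12.4%. The window lies within the longer GENCODE gene, which starts at 11404770, and the bases before that start were not searched. No listed element was found in the promoters of Ms4a3 or Ms4a4a.

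Counted together, 1 member was higher and 5 were lower in PARP1CKO than in PARP1 WT, and none passed the threshold in edgeR's quasi-likelihood test, against 0.106% of all genes tested. At an unadjusted p under 0.05 there was 1 member, Ms4a7, against 11.3% of all genes, the likelihood-ratio test called the same gene and DESeq2 called 0. Ms4a7 was also the 1 member whose groups did not overlap, being lower, as 20.2% of all genes were, and 0 members were higher without overlap, against 21% of genes. The median log2 fold change was -0.05 for the members and 0.00586 for all genes.

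In PARP2CKO 5 members were higher and 1 was lower than in PARP2 WT, and none passed, against 0.053% of all genes. At an unadjusted p under 0.05 there were 2, Ms4a7 and Ms4a6d, against 4.83%, and the likelihood-ratio test and DESeq2 called 0. These 2 did not overlap between the groups and were higher, as 18.4% of genes were, and Ms4a4c did not overlap and was lower, as 18.8% were. The median was 0.15 for the members and -0.00140 for all genes. For the difference between the effects 0 members passed, against 0.0152% of genes, and 1, Ms4a7, had an unadjusted p under 0.05, against 7.69%. The likelihood-ratio test and DESeq2 each called Ms4a7.

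**Figure D4:**
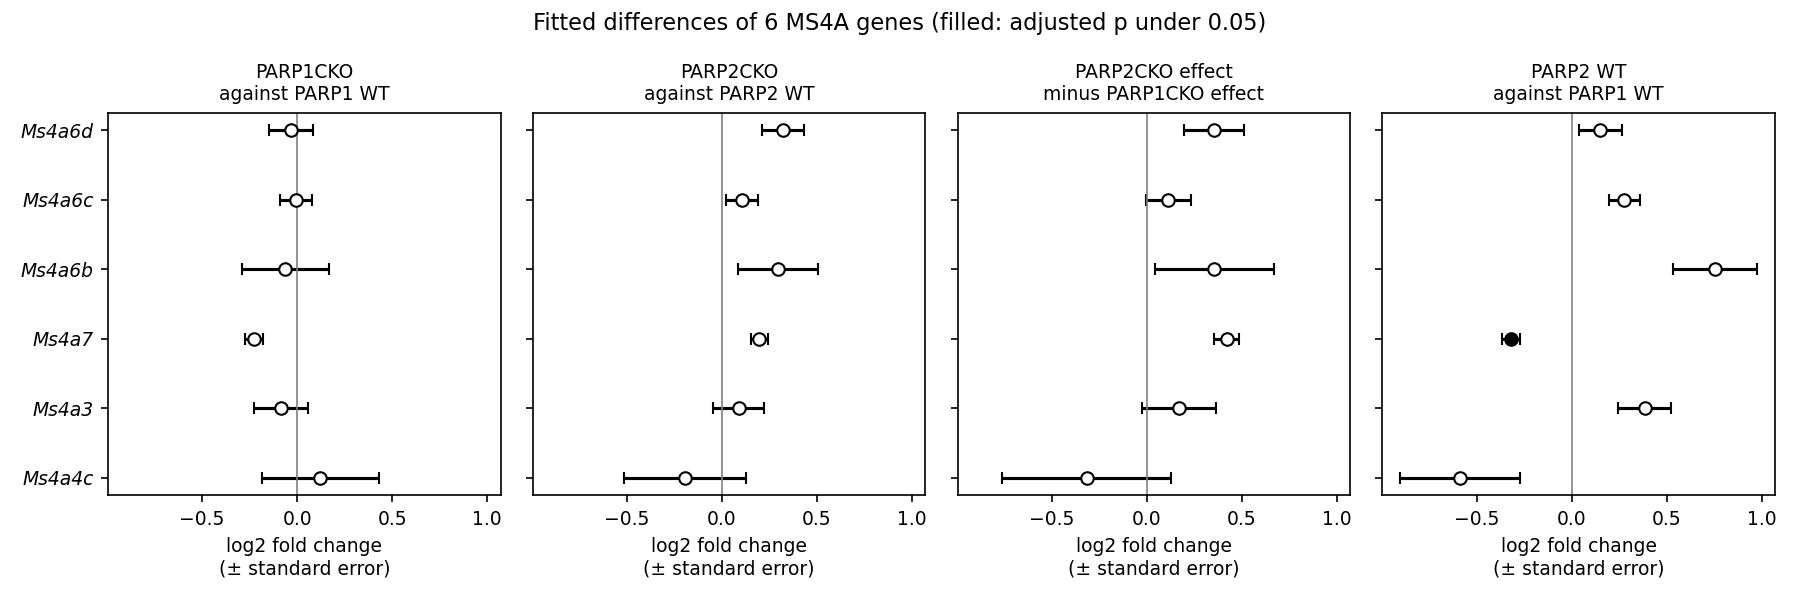
log2 fold change with its standard error for the 6 members in 4 comparisons from the same model (filled: adjusted p under 0.05). Ms4a7 has the shortest error bars, lies at -0.23 in PARP1CKO and at 0.20 in PARP2CKO, and at -0.32 between the WT lines holds the filled point.

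Between PARP2 WT and PARP1 WT 4 members were higher and 2 were lower. Ms4a7 was the 1 member called, against 3.16% of all genes, of which 1.24% were called lower. An unadjusted p under 0.05 was found for 4 members, Ms4a3, Ms4a6b, Ms4a6c and Ms4a7, against 18.9%. Groups did not overlap for 3 members that were higher (26.7% of genes) and for 2 that were lower (25.2% of genes), and the exception was Ms4a6d. With 2 libraries against 2, an exact two-sided permutation test of any single value cannot go below p = 0.333.

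The other MS4A genes were listed genes of the family that are not among the members. Of 14 listed, 10 were in the table and 3 passed the filter. Ms4a1 was at 4.11 and 3.69 CPM in PARP1 WT, against 1.09 and 1.04 CPM in PARP2 WT, and it was lower in PARP2 WT (log2 fold change -1.87, standard error 0.251, adjusted p = 0.00703). With it fell the B cell markers Cd79a, Cd79b, Pax5 and Ebf1, with log2 fold changes between -2.61 and -1.19 and adjusted p between 0.00529 and 0.0299. The summed level of the B cell list lay between 25.8 and 37.4 CPM in the PARP1 line and between 7.12 and 10.3 CPM in the PARP2 line. Ms4a2 was at 1.32 and 1.45 CPM in PARP1 WT and at 0.726 and 0.961 CPM in PARP2 WT (log2 fold change -0.72, adjusted p = 0.218). The basophil and mast cell list summed to between 22.2 and 30.1 CPM in the PARP1 line and between 8.25 and 16.0 CPM in the PARP2 line. The part of these cell types in the values of Ms4a1 and Ms4a2 was not tested. Ms4a4b, which is known from T cells, stayed under 0.75 CPM. Ms4a10, Ms4a13, Ms4a15 and Ms4a18 had 0 counts in all 8 libraries, and Ms4a4d, Ms4a5 and Ms4a8a had at most 2 counts in any library.

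The TMEM176 genes, distant relatives of the MS4A family, were low in these cultures. Tmem176b was at 2.40 and 2.64 CPM in PARP1 WT and at 3.61 and 3.92 CPM in PARP2 WT (log2 fold change 0.57, adjusted p = 0.119), and Tmem176a lay between 0.694 and 1.63 CPM over the 8 libraries (log2 fold change 0.47, adjusted p = 0.362). Neither passed in a CKO comparison.

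Of 10 partners of MS4A proteins 9 were tested, and 0 of these passed in PARP1CKO or PARP2CKO. Between the WT lines 1 was higher and 1 lower. Clec7a stood at 26.9 and 39.6 CPM in the PARP1 WT libraries, 26.8 and 29.5 CPM in the PARP1CKO libraries, 64.3 and 59.4 CPM in the PARP2 WT libraries, and 84.2 and 66.6 CPM in the PARP2CKO libraries (log2 fold change between WT lines 0.89, standard error 0.163, adjusted p = 0.0256). Cdkn3 was lower (log2 fold change -0.38, standard error 0.0657, adjusted p = 0.0197). Trem2 lay between 330 and 448 CPM, Tyrobp, its signalling adaptor, between 549 and 647 CPM, and Fcer1g, the common gamma chain of Fc receptors, between 769 and 900 CPM, and none of these 3 passed in any comparison. Of the macrophage list, Mertk, a receptor for the uptake of dead cells, was higher in PARP2 WT by 0.76 (adjusted p = 0.00529), whereas Ms4a7 was lower.

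Further markers passed between the WT lines alone. Fn1 of the monocyte list was higher by 0.78 on the log2 scale (adjusted p = 0.00703). Of the 9 neutrophil markers tested 3 had positive and 6 negative values, with a median of -0.06, and Retnlg and Mmp9 were those that passed, with log2 fold changes of -0.79 (adjusted p = 0.00924) and -0.63 (adjusted p = 0.0112). The near-identical alpha globin genes Hba-a1 and Hba-a2 of the erythroid list each had -1.31 (adjusted p = 0.0126), with the same counts, so that they are 1 measurement. No dendritic cell, basophil and mast cell or T and NK cell marker passed, and no gene of any list passed in PARP1CKO, in PARP2CKO or for the difference between these effects.

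**Figure D5:**
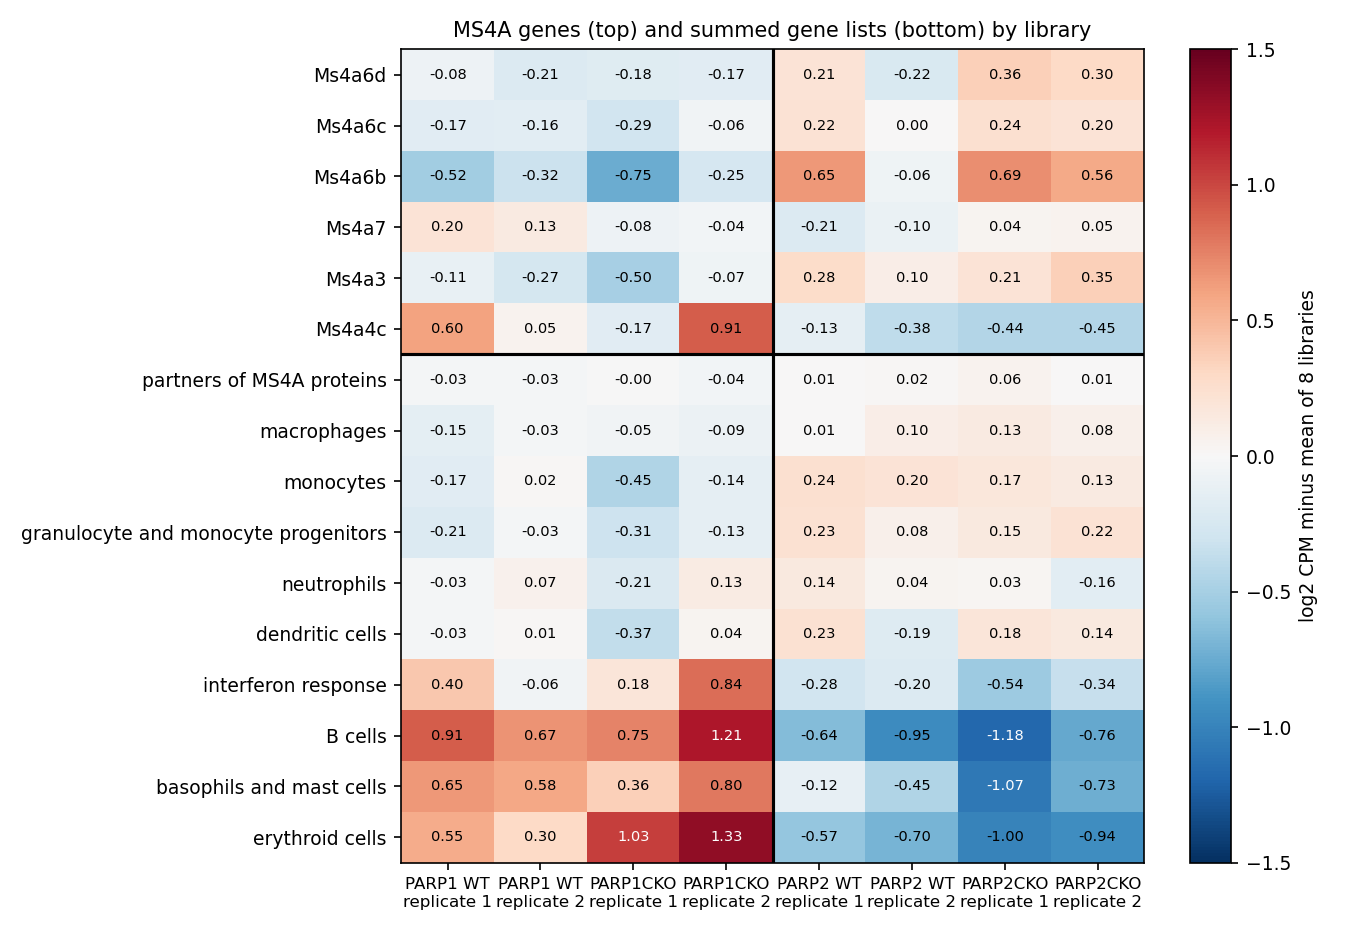
log2 CPM of each member (above the line) and of the summed level of each gene list (below it), minus the mean over the 8 libraries. B cell, basophil and mast cell and erythroid lists are below their means in all PARP2-line libraries, the basophil and mast cell list only slightly in PARP2 WT replicate 1. The interferon list is highest in PARP1CKO replicate 2, as is Ms4a4c, and Ms4a6b follows the lines with PARP2 WT replicate 2 at -0.06.

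The genes most like each member were found by Pearson's r of log2 CPM over the 8 libraries, among 8673 genes with a mean of at least 10 CPM. The libraries share their lines, so that a gene that differs between the lines resembles others that do. Ms4a6b was most like Ms4a6c (r = 0.99), then Lpcat1 (0.98), a phospholipid acyltransferase, and Mpo (0.97), the myeloperoxidase of progenitor granules. Ms4a6c was most like Ms4a6b (0.99), Naaa (0.98), a lysosomal amidase, and Lpcat1 (0.97). Ms4a3 came with Mrps24, Rwdd4a and Gsap (0.97 each). Ms4a4c came with Ifi47 (0.97), an interferon-induced GTPase, Fgl2 (0.97) and Abcg1 (0.96), a cholesterol transporter. Ms4a6d came with Nudcd3 (0.97), Nf2 (0.96) and Mink1 (0.95). Ms4a7 came with Sdccag8 (0.98), Tgfbr1 (0.95), a receptor for TGF-beta, and Nfyb (0.94).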

How the data were processed

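The deposited file holds raw counts per gene for 8 libraries, 2 per group. The authors made total RNA libraries with the TruSeq Stranded kit from 4 µg of RNA, trimmed single-end reads of 75 bases, mapped them to mm10 with TopHat2 2.0.12, marked duplicates with Picard 1.127 and counted with featureCounts. The annotation, the strand setting and whether marked duplicates were counted are not given in the sources used here. All columns belong to the 8 libraries. Of 24062 genes 6520 had no count. Replicates differed by more than sampling noise (chi-square per gene 8.56 to 12.9).

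Counts were analysed in R 4.3.3 with edgeR 4.0.16 (filterByExpr, TMM, quasi-likelihood test, a mean per group over all 8 libraries, Benjamini-Hochberg over 13197 genes, threshold 0.05). The common biological coefficient of variation was 0.055 and TMM factors lay between 0.965 and 1.03. Standard errors were derived as the absolute log2 fold change divided by the square root of the quasi-likelihood F statistic. The test was checked on simulated data. Alternatives were DESeq2 1.42.0 as a test or for size factors, library size alone, a likelihood-ratio test, only the 4 libraries of a comparison, other low-count filters, a replicate block, and leaving out each library. Exon lengths come from GENCODE M21 and promoters from RefSeq. Figures were drawn with matplotlib 3.10.9. The members, Parp1 and Parp2, list genes that passed, the MS4A and TMEM176 genes past the filter, and the 3 genes nearest to each member were named. Cell type marker, interferon, partner, MS4A and TMEM176 lists, like the members, were chosen with earlier results of these data known. Itgam was added as a check of the cells. Some list genes that passed are not reported here.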

Additional observations from a re-analysis of the deposited data

How the results depend on the processing

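With the main test 0 members were called in PARP1CKO, 0 in PARP2CKO, 0 for the difference between the effects and 1 between the WT lines. The likelihood-ratio test called 1 in PARP1CKO, 1 for the difference and 3 between the lines. DESeq2 called 1 for the difference and 2 between the lines, and no filter on low counts called 1 and 3. Leaving out a library leaves 1 library in its group, so members called are not counted over these fits. Between the lines the Ms4a7 call was lost without PARP1 WT replicate 1 or PARP2 WT replicate 1. Calls of Ms4a6b between the lines and of Ms4a6d in PARP2CKO appeared when a PARP2 WT library was left out, as given above. The cause of these changes was not tested.

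Signs turned only where a library was left out. Over these fits the log2 fold change in PARP1CKO ran from -0.31 to 0.12 for Ms4a3, from -0.51 to 0.57 for Ms4a4c, from -0.33 to 0.17 for Ms4a6b, from -0.13 to 0.10 for Ms4a6c and from -0.098 to 0.028 for Ms4a6d. In PARP2CKO it ran from -0.015 to 0.70 for Ms4a6b. The difference between the effects ran from -0.035 to 0.40 for Ms4a3 and from -0.77 to 0.32 for Ms4a4c. Between the lines Ms4a6d ran from -0.081 to 0.35. Ms4a7 kept its sign in the 4 comparisons under each setting with a fold change, which leaves out the crossed block below.

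Replicate numbers were not taken to pair the samples, since the labels do not say what a number shares. The differences between replicates correlated across genes at -0.196 between the PARP1 groups and at 0.196 between the PARP2 groups. With the replicate block 0, 0, 0 and 1 members were called in the 4 comparisons, and all genes called went from 14 to 14, 7 to 6, 2 to 3 and 417 to 315. With the PARP1 numbers crossed, an alternative chosen after seeing the data, 1 member was called for the difference, and all genes called were 46, 15, 42 and 807. Over all genes the likelihood-ratio test called 146, 39, 72 and 910, DESeq2 called 86, 27, 45 and 551, and no filter gave 101, 26, 61 and 872. A fit on the 4 libraries of a comparison gives no value for the difference between the effects. No scaling moved the median of all genes by 0.1 on the log2 scale. Ms4a4c, with 178 to 427 counts per library, has the least depth of the members.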
